A study of Vitis vinifera with 6 samples.

Results

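A set of 6 aquaporin genes of grapevine was examined here, 4 of the plasma membrane class (PIP) and 2 of the tonoplast class (TIP), out of 34369 gene probes on the array. They were set by a list of gene identifiers, drawn up with earlier results of these data known, and all 6 had a probe. The names of the selection are PIP1;3 for VIT_02s0025g03260, PIP2;1 for VIT_13s0019g04280, PIP2;3 for VIT_08s0040g01890, PIP2;4 for VIT_06s0004g02850, TIP1;1 for VIT_06s0061g00730 and TIP2;1 for VIT_09s0002g03750. These names are not settled. In the annotation published with the arrays, VIT_02s0025g03260 is called NIP5;1, a class of aquaporin that carries boric acid in Arabidopsis, VIT_08s0040g01890 is called PIP2;4, VIT_13s0019g04280 is called PIP2B, and VIT_09s0002g03750 is called a GATA transcription factor. The RefSeq gene table held 5 of the 6 symbols but paired none of them with these identifiers, and it placed TIP1;1 on chromosome 13, whereas the identifier VIT_06s0061g00730 carries the number of chromosome 6. The members are therefore called by identifier below, and the class of a member is that of the selection.

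Aquaporins are membrane channels that let water, and in some classes small neutral solutes, cross a lipid bilayer along its gradient. PIPs reside mainly in the plasma membrane, where members of the PIP2 group are efficient water channels and members of the PIP1 group often need a PIP2 partner to reach the cell surface. TIPs reside in the tonoplast, the membrane of the vacuole, and let water move between the vacuole and the cytosol, which bears on turgor and cell expansion in leaves.

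The study measured gene expression in leaves of grapevine (Vitis vinifera cv Shiraz) that overexpressed VviNAC33, a NAC transcription factor, and in control leaves. The OXNAC33 group had 3 arrays of transgenic plants with VviNAC33 under the constitutive 35S promoter of cauliflower mosaic virus, so that expression was not limited to 1 cell type. The control group had 3 arrays. Per the methods, the overexpressing plants were independent single-copy lines regenerated from embryogenic calli, controls were transformed with a vector that carried eGFP in place of VviNAC33, and leaves were pooled for RNA. Per the labels, the plants grew in a greenhouse and young leaves were taken when the phenotype began to show. The labels give no plant age, and do not say which line or control plant gave which array, so p-values measure the spread between these 3 arrays per group.

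Each array was a single-colour Agilent hybridisation, and levels are given as log2 intensity relative to the 75th percentile of the same array, so that 0 is the 75th percentile and a difference of 1 is a doubling. On the 6 arrays, 69.4% to 74.9% of gene probes were well above background and none was saturated. The probe of VviNAC33 read -5.22, -4.14 and -4.01 on control arrays 1, 2 and 3, and -0.54, -3.89 and -0.998 on OXNAC33 arrays 1, 2 and 3. OXNAC33 replicate 2 was 0.57 above the control mean, against 3.92 and 3.46 for replicates 1 and 3 on this log2 scale, so its label could not be checked by this probe, and the change of each member is given with and without it. The change of VviNAC33 was 2.65 with all arrays (adjusted p = 0.116, limma) and 3.69 without OXNAC33 replicate 2 (adjusted p = 0.0198, limma). That array was set apart by its low reading on this same probe, so the second value is not an independent check of the labels. The arrays were scanned in 2 sessions, session 1 with control 1 and OXNAC33 replicates 1 and 2, and session 2 with controls 2 and 3 and OXNAC33 replicate 3.

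Among the members, VIT_09s0002g03750 (selected as TIP2;1) fell 3.36-fold in OXNAC33 leaves and was the only member past the threshold of adjusted p below 0.05. VIT_08s0040g01890 (PIP2;3) was 3.17-fold lower and VIT_06s0061g00730 (TIP1;1) 11.4-fold lower, both without overlap of the groups but short of the threshold. VIT_02s0025g03260 (PIP1;3) read higher on average, VIT_06s0004g02850 (PIP2;4) did not separate the groups, and VIT_13s0019g04280 (PIP2;1) lost 3 of its 6 spots to outlier flags and was not tested. In these whole leaf samples, fewer cells of a type and less RNA per cell cannot be told apart.

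All 6 members passed the filter on dim probes, being well above background on every array, and 5 were tested. Of the 5, 1 was called, in the lower direction, and none was called higher (0 of 5), where 5.02% of the 23907 probes tested were called in either direction, 3.33% lower and 1.69% higher. At an unadjusted p below 0.05 there were 4 of the 5, beside 27.3% of all probes, of which 3 were lower (15.6% of all probes) and 1 was higher (11.7% of all probes). Called or not, 4 of the 5 had a lower mean in OXNAC33, as did 50.8% of all probes. The groups did not overlap, with OXNAC33 lower, for 3 of the 5, beside 20.0% of all probes, and for none with OXNAC33 higher, beside 14.6%. In either direction the share over all probes was 34.6%. The median change of the 5 was -1.67, beside -0.01 over all probes tested. VIT_08s0040g01890 and VIT_09s0002g03750 stand in the list of differing genes that the study drew from these same samples, so their direction is not independent evidence. The other 3 tested members had changes from -3.51 to 0.97 with a median of -0.12, and none was called.

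**Figure D1:**
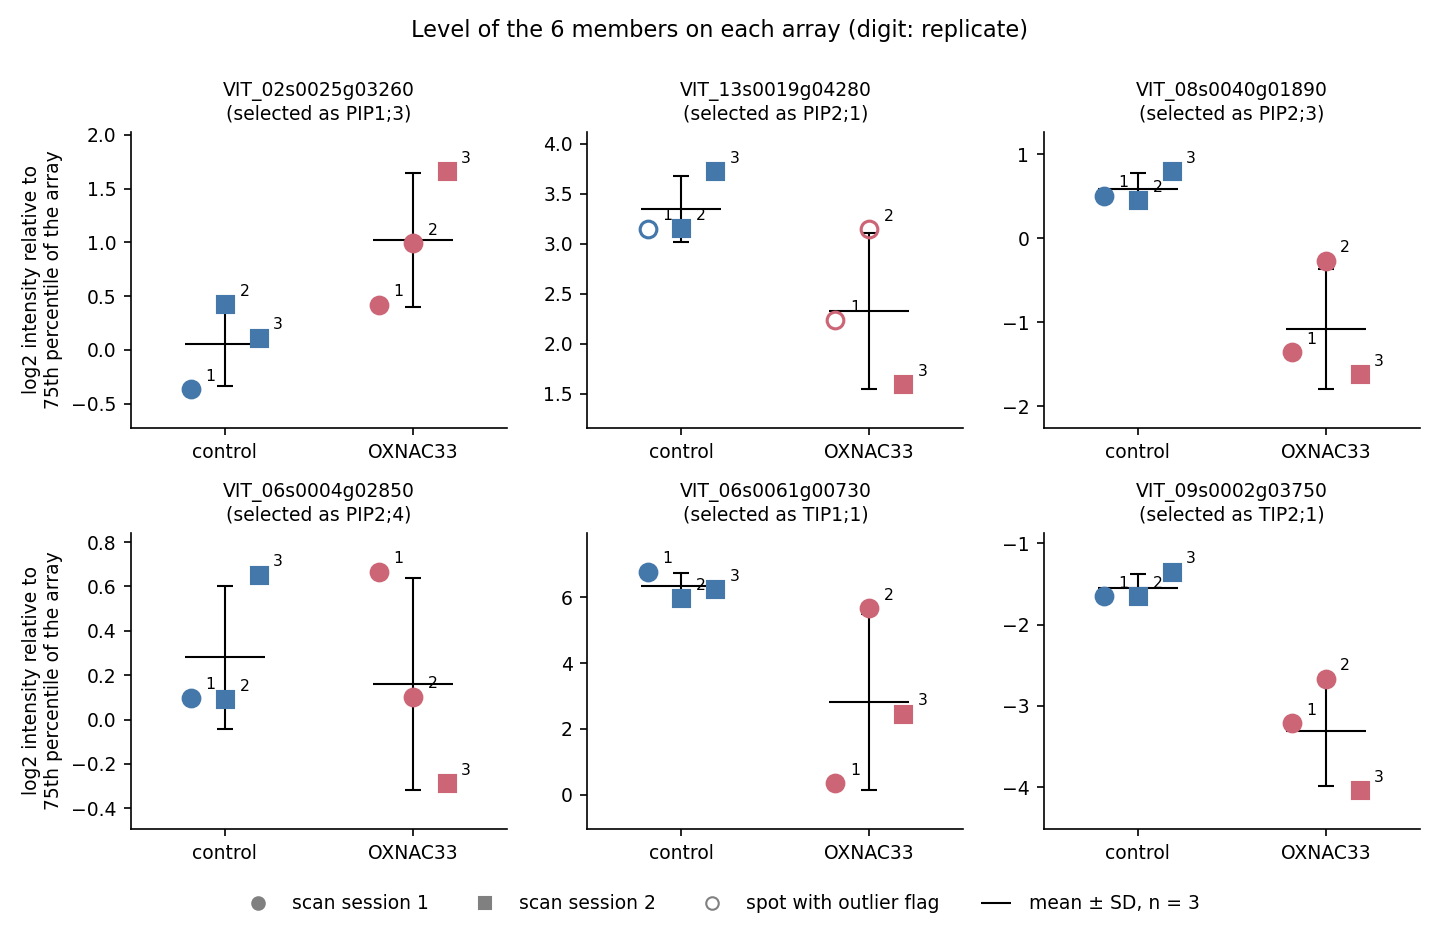
Level of each member on each of the 6 arrays, in log2 units above or below the 75th percentile of that array, with the group mean and SD (n = 3) in black. Circles are scan session 1, squares session 2 and open symbols are spots with an outlier flag. The groups of VIT_08s0040g01890, VIT_06s0061g00730 and VIT_09s0002g03750 do not overlap, and OXNAC33 replicate 2 of VIT_06s0061g00730 lies 0.32 below the lowest control.

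Of the plasma membrane members, VIT_08s0040g01890 (PIP2;3), a predicted water channel of the PIP2 group, read 0.50, 0.45 and 0.80 on the control arrays and -1.36, -0.27 and -1.62 on the OXNAC33 arrays. All OXNAC33 arrays lay below all controls, and replicate 2 lay nearest to them. The control arrays averaged 0.59 ± 0.19 and the OXNAC33 arrays -1.08 ± 0.72 (SD, n = 3 each), a change of -1.67 with an SE of 0.37 and a 95% interval of -2.56 to -0.78 (adjusted p = 0.0535, limma). The size of the change was larger than the spread within either group, but it missed the threshold narrowly. It passed under quantile scaling (adjusted p = 0.0479, limma), scaling by the array median (0.0488), a filter for probes well above background on all arrays (0.0493) and trended robust variance estimation (0.0396), with changes of -1.67 to -1.54 in these settings. Without OXNAC33 replicate 2 the change was -2.07 (adjusted p = 0.0198, limma). Within scan sessions 1 and 2 it was -1.32 and -2.24.

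VIT_02s0025g03260 (PIP1;3) was the only tested member with a higher mean in OXNAC33 leaves. It read -0.36, 0.43 and 0.11 on the control arrays and 0.42, 0.99 and 1.66 on the OXNAC33 arrays. OXNAC33 replicates 2 and 3 lay above all controls, while replicate 1 was level with control 2. The means were 0.06 ± 0.40 and 1.03 ± 0.62 (SD, n = 3 each), and the change of 0.97 had an SE of 0.37 and a 95% interval of 0.08 to 1.86 (adjusted p = 0.156, limma). The change was 1.07 in session 1 and 1.40 in session 2, and with the session as a block it was 1.23 (adjusted p = 0.0599, limma). Without OXNAC33 replicate 2 it was 0.98 (adjusted p = 0.214, limma). It was not called in any setting tried.

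VIT_06s0004g02850 (PIP2;4) read 0.10, 0.09 and 0.65 on the control arrays and 0.67, 0.10 and -0.29 on the OXNAC33 arrays. The ranges overlapped almost wholly, with the highest and the lowest value both in OXNAC33. The change of -0.12 had a 95% interval of -0.86 to 0.62 (adjusted p = 0.835, limma), so that a change of either sign of more than 0.86 lay outside the interval, and its sign turned under scaling by the array median, under spike-in scaling, without control 3 and without OXNAC33 replicate 3. It was 0.29 within session 1 and -0.66 within session 2, and -0.091 without OXNAC33 replicate 2 (adjusted p = 0.903, limma).

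VIT_13s0019g04280 (PIP2;1) was left with 3 spots once outlier flags were applied, 3.16 and 3.73 on controls 2 and 3 and 1.60 on OXNAC33 replicate 3. With the flagged spots kept, a choice made after seeing the data, it read 3.15, 3.16 and 3.73 on the control arrays and 2.23, 3.15 and 1.60 on the OXNAC33 arrays. OXNAC33 replicates 1 and 3 then lay clearly below the controls, and replicate 2 lay level with controls 1 and 2. The change was -1.02 with an SE of 0.42 and a 95% interval of -2.02 to -0.03 (adjusted p = 0.174, limma), and -1.43 without OXNAC33 replicate 2 (adjusted p = 0.0471, limma). Within session 1 the change was -0.46 and within session 2, which held 1 OXNAC33 array, it was -1.85. Of the 3 flagged spots, 1 was a control and 2 were OXNAC33, and whether the flags mark real values was not tested.

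The tonoplast member VIT_06s0061g00730 (TIP1;1) had the largest change and the widest spread of the 5 tested. TIP1 proteins are among the most abundant proteins of the tonoplast in vegetative plant cells. It read 6.78, 5.99 and 6.25 on the control arrays and 0.34, 5.67 and 2.47 on the OXNAC33 arrays. Each OXNAC33 array lay below each control, but by very different distances. Relative to the control mean, replicate 1 was 63.9-fold lower, replicate 2 was 1.59-fold lower and replicate 3 was 14.6-fold lower, and the OXNAC33 arrays spanned a 40.1-fold range among themselves. The SD in OXNAC33 was 2.68, which 60 of 23228 probes with 6 values exceeded and which compares with a median SD of 0.38, whereas the control SD was 0.41. The change was -3.51 with an SE of 1.23 and a 95% interval of -6.45 to -0.57 (adjusted p = 0.128, limma), the 70th lowest of the 23907 changes. Without OXNAC33 replicate 2 it was -4.93 (adjusted p = 0.0220, limma), and within sessions 1 and 2 it was -3.78 and -3.65. Its spots were bright, from 978 to 100180 intensity units, and none was saturated.

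VIT_09s0002g03750 (TIP2;1) was the member that passed the threshold. It read -1.65, -1.65 and -1.35 on the control arrays and -3.21, -2.67 and -4.03 on the OXNAC33 arrays. The groups were separated by a gap of 1.01, and the control arrays were tightly grouped. The change was -1.75 with an SE of 0.36 and a 95% interval of -2.61 to -0.89 (adjusted p = 0.0478, limma), from -1.55 ± 0.17 to -3.30 ± 0.69 (SD, n = 3 each). The call was near the threshold and was lost when any one of the other arrays was left out (adjusted p from 0.0971 to 0.152, limma), whereas without OXNAC33 replicate 2 it held, with a change of -2.07 (adjusted p = 0.0250, limma). With the scan session as a block the change was -1.91 (adjusted p = 0.0576, limma), a fit in which 0 probes were called and 28.6% had an unadjusted p below 0.05. Within sessions 1 and 2 it was -1.28 and -2.53. The probe is annotated as a GATA transcription factor in the published annotation, so the call concerns this identifier and not surely an aquaporin.

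**Figure D2:**
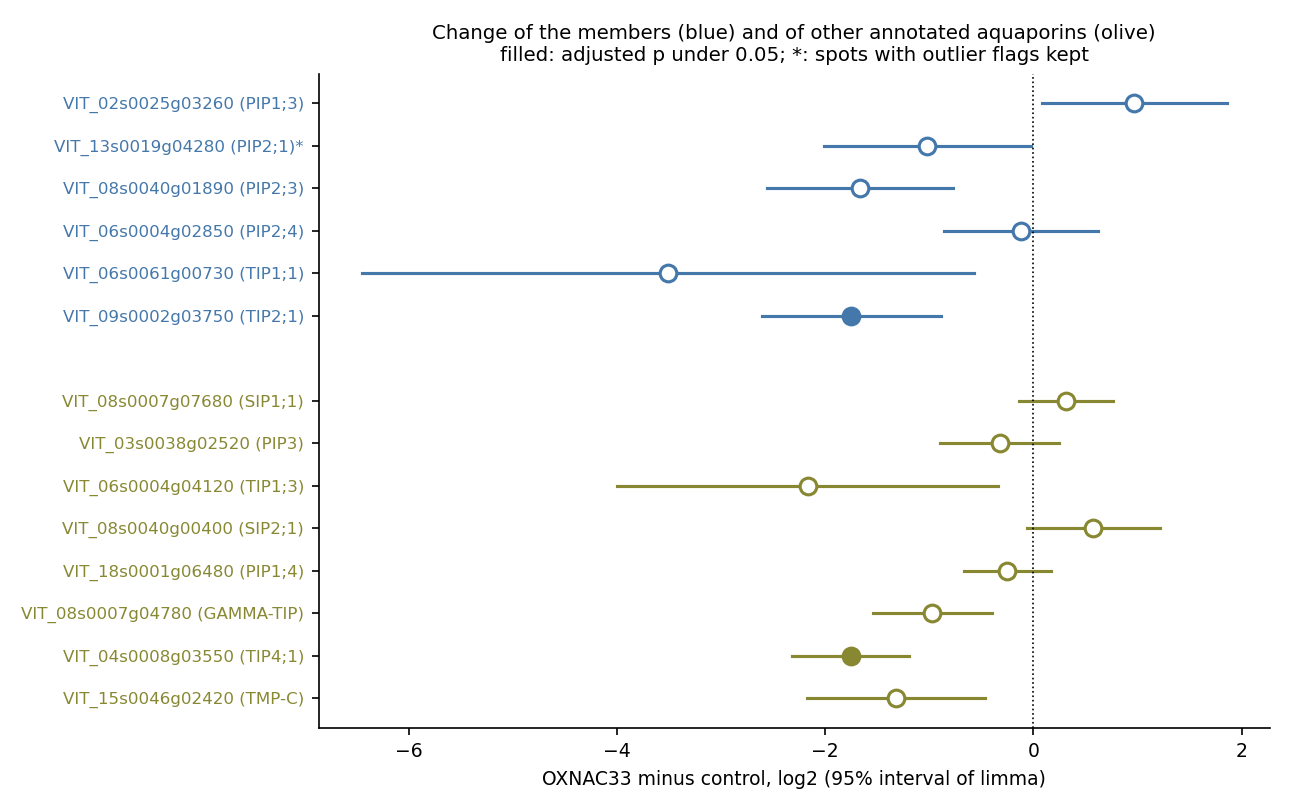
Change from control to OXNAC33 leaves (log2, horizontal axis) with its 95% interval for the 6 members in blue and 8 other annotated aquaporins in olive. Filled points passed adjusted p below 0.05, which holds for VIT_09s0002g03750 among the members and VIT_04s0008g03550 (TIP4;1) among the others, and the starred member is shown with its flagged spots kept.

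Changes of the members were compared among themselves, over 10 pairs of the 5 tested members, as the difference between the changes with an exact two-sided permutation test over arrays, whose smallest possible p is 0.10. No pair could therefore pass the threshold, and the lowest value after Benjamini-Hochberg adjustment was 0.167 (exact permutation test). It was reached by the 6 pairs that set VIT_02s0025g03260 or VIT_06s0004g02850 against the 3 members whose groups did not overlap, and so adds little to that separation. The change of VIT_02s0025g03260 was 2.63, 4.48 and 2.72 above those of the 3 lower members in that order, the change of VIT_06s0004g02850 was 3.39 and 1.63 above those of VIT_06s0061g00730 and VIT_09s0002g03750, and the change of VIT_08s0040g01890 minus that of VIT_06s0004g02850 was -1.55. VIT_08s0040g01890 and VIT_09s0002g03750 had changes that differed by 0.083 (exact permutation p = 0.80), a test that does not show that they are alike.

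The OXNAC33 arrays were not equally far from the controls. For VIT_08s0040g01890 the fold below the control mean was 3.84, 1.81 and 4.61 on OXNAC33 replicates 1, 2 and 3, and for VIT_09s0002g03750 it was 3.15, 2.17 and 5.57. Replicate 2 was the nearest to the controls for both and for VIT_06s0061g00730, and it was also the array with the least VviNAC33 signal. The same held across the array, since replicate 2 was the nearest of the 3 in 43.6% of 23228 probes, and in 48.6% of the 4682 with OXNAC33 below all controls. For VIT_02s0025g03260 replicate 1 was the nearest instead, 1.28-fold above the control mean, against 1.91-fold and 3.04-fold for replicates 2 and 3. Whether the level of VviNAC33 sets that of the members was not tested.

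**Figure D3:**
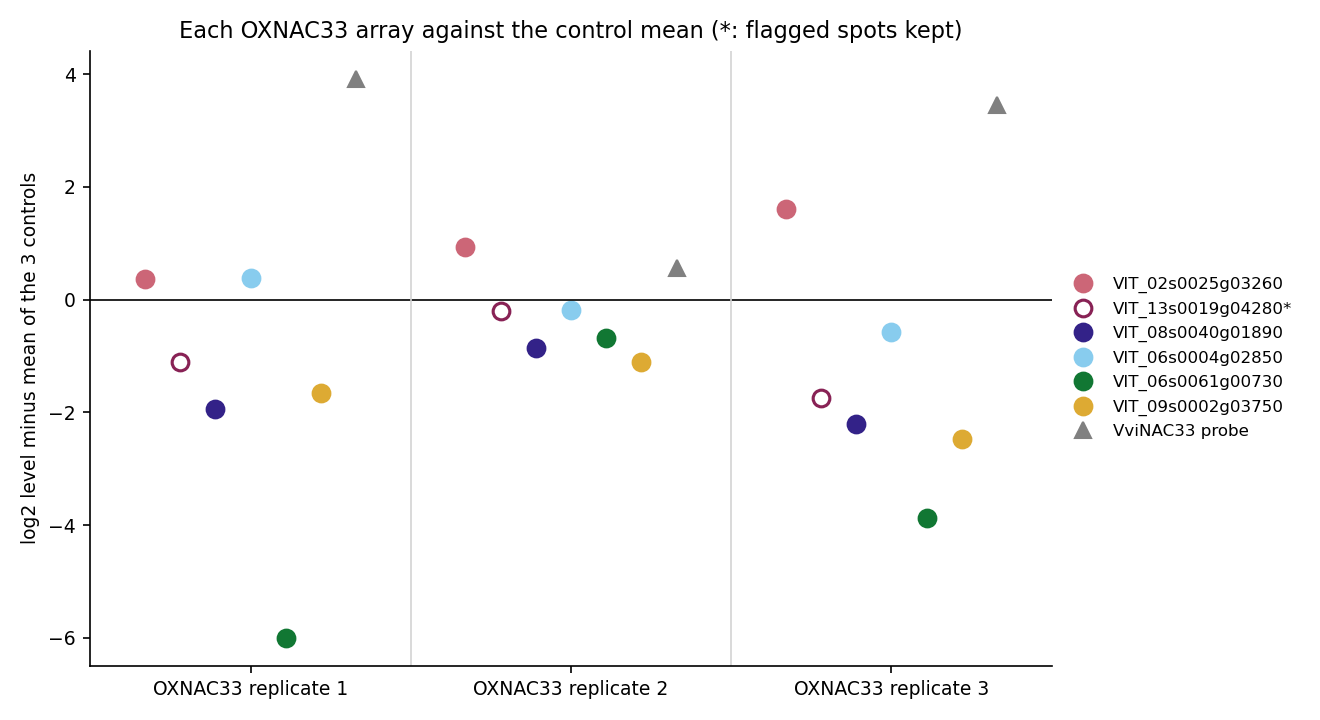
Level of each member on each OXNAC33 array minus the mean of the 3 control arrays (log2, vertical axis), with the VviNAC33 probe as grey triangles and the starred member with flagged spots kept. On replicate 2 VviNAC33 lies 0.57 above the control mean and the members lie between -1.12 and 0.93, while VIT_06s0061g00730 reaches -6.00 on replicate 1.

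Other aquaporins that the study annotated were 8 in number, all of them tested, and 5 of the 8 stand in its list of differing genes. Only 1 was called, lower in OXNAC33, where 5.02% of all probes tested were called, and 6 of 8 had a lower mean, as did 50.8% of all probes. The median change was -0.65, beside -0.01 over all probes, and it was -0.97 for the 5 in the study's list, which was drawn from these same samples, and -0.33 for the 3 outside it, none of which was called. The called one was VIT_04s0008g03550 (TIP4;1), a tonoplast aquaporin, which read 2.89, 3.23 and 3.58 on the control arrays and 1.58, 1.31 and 1.53 on the OXNAC33 arrays. Unlike the tonoplast member VIT_06s0061g00730, its OXNAC33 arrays lay close together, with replicate 2 the lowest. It fell by 1.76 with an SE of 0.24 (adjusted p = 0.0361, limma), and by 1.68 without OXNAC33 replicate 2 (adjusted p = 0.0277, limma). The call was lost with the session block (adjusted p = 0.0546, limma) and without any one other array (adjusted p from 0.0699 to 0.115, limma).

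The remaining aquaporins of the tonoplast and plasma membrane classes were not called with all arrays. VIT_08s0007g04780 (GAMMA-TIP) changed by -0.97 (adjusted p = 0.0641, limma) and VIT_15s0046g02420 (TMP-C, a name of a PIP1 protein) by -1.32 (adjusted p = 0.0774, limma). Both had OXNAC33 below all controls and passed without replicate 2 (adjusted p = 0.0419 and 0.0290, limma). Among the 8, OXNAC33 lay below all controls for 4, TIP4;1 and PIP1;4 included, beside 20.0% of all probes. All 4 stand in the study's own list, drawn from these same samples, so this count is not independent evidence. Among the 3 outside that list, 0 had OXNAC33 below all controls. It lay above all controls for 2, both of the SIP class, beside 14.6% of all probes. VIT_06s0004g04120 (TIP1;3) differed by -2.17 (adjusted p = 0.130, limma), from a dim probe that was well above background on 2 of 3 OXNAC33 arrays, and by -2.86 without replicate 2 (adjusted p = 0.0542, limma). VIT_18s0001g06480 (PIP1;4) and VIT_03s0038g02520 (PIP3) had smaller differences of -0.25 and -0.33 (adjusted p = 0.406 and 0.427, limma). The small intrinsic proteins of the SIP class, which lie in the endoplasmic reticulum in Arabidopsis, were the 2 with higher means, VIT_08s0007g07680 (SIP1;1) by 0.31 and VIT_08s0040g00400 (SIP2;1) by 0.58 (adjusted p = 0.338 and 0.219, limma), the latter with 1 control spot left out for its outlier flag.

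Proton pumps of the tonoplast, which build the gradient that drives solutes into the vacuole, were listed as 14 genes, of which 13 were tested. Only 1 was called, VIT_02s0025g00960 (a V-ATPase subunit E), which was not well above background on any control array and was at least 3.34-fold higher in OXNAC33 (adjusted p = 0.0361, limma). The bound is the mean OXNAC33 level over the lowest level well above background on the control arrays. The gene passed the filter only through the OXNAC33 arrays, where it was brighter. Its p-value thus rests on control values near the background and is no support of its own. The call was lost with the session block (adjusted p = 0.0546, limma) and the replicate block (adjusted p = 0.0972, limma). Without OXNAC33 replicate 2 it held (adjusted p = 0.0198, limma). Of the 13, 8 read lower, by -1.05 to -0.38, and none of them was called. The counts of 1 called and 8 lower lie near the shares over all probes tested, 5.02% called and 50.8% lower, and are no result about the pumps. OXNAC33 lay below all controls for 7 of the 13, beside 20.0% of all probes. At an unadjusted p below 0.05 (limma), 6 were lower, beside 15.6% of all probes. All 8 and the called gene stand in the study's own list, drawn from these same samples, so these counts are not independent evidence. The other 4 tested pumps, outside that list, had changes of 0.01 to 0.15, and the median of the 13 was -0.38.

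By the Pearson correlation with the mean of the 5 tested members, each centred, over the 6 arrays, the most alike of 23223 probes were VIT_10s0116g00520, annotated as a xyloglucan endotransglucosylase/hydrolase (r = 0.999), and VIT_01s0026g01890, with no annotation in the sources used here (r = 0.999). Their changes were -3.67 and -0.94 (adjusted p = 0.0836 and 0.121, limma). The mean profile follows VIT_06s0061g00730 most, as its range is the widest, and with 6 arrays in 2 groups the correlation is a description only.

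The tissue label was checked with leaf markers. All 5 photosynthesis markers were well above background on every array, and their summed level was 7.73 to 8.62 in controls and 6.81 to 8.13 in OXNAC33. None of the 5 was called. The chlorophyll a/b binding protein VIT_07s0005g02220 (CAB-1) had the largest change of the 5, at -1.79 (adjusted p = 0.144, limma). It read 7.64, 6.43 and 7.18 in controls and 4.63, 6.78 and 4.46 in OXNAC33, with replicate 2 within the range of the controls. The rest of the 5 changed by -0.52 to -0.04 (adjusted p from 0.443 to 0.963, limma). The summed level of the 7 xylem and secondary wall markers was -0.18 to -0.03 in controls and -0.10 to 0.66 in OXNAC33, with 3 of the 7 well above background on all arrays and 1 on none. The summed level of the 2 phloem markers was 2.12 to 3.10 in controls and 3.82 to 4.26 in OXNAC33, without either marker passing the threshold. This sum is nearly all VIT_01s0011g01730 (PP2-A9), with means of 2.69 and 3.98. That gene stands in the study's list, drawn from these same samples. The lectin VIT_00s0214g00160, with means of -3.20 and -2.42, had overlapping groups (adjusted p = 0.228, limma). The summed level of the 2 stomatal lineage markers was -1.75 to -1.35 in controls and -2.74 to -1.78 in OXNAC33. It is mostly VIT_05s0029g00050 (FAMA), the brighter of the 2. Of the stomatal lineage markers, VIT_16s0050g02500 (MUTE), a regulator of stomatal precursor cells in Arabidopsis, was at least 2.49-fold lower (adjusted p = 0.0361, limma) and was not well above background on any OXNAC33 array. MUTE passed the filter only through the control arrays, where it was brighter. Its p-value thus rests on OXNAC33 values near the background and is no support of its own. The other, VIT_05s0029g00050 (FAMA), changed by -0.44 with overlapping groups (adjusted p = 0.414, limma). With the scan session as a block neither was called. The part of these markers in the changes of the members was not tested.

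**Figure D4:**
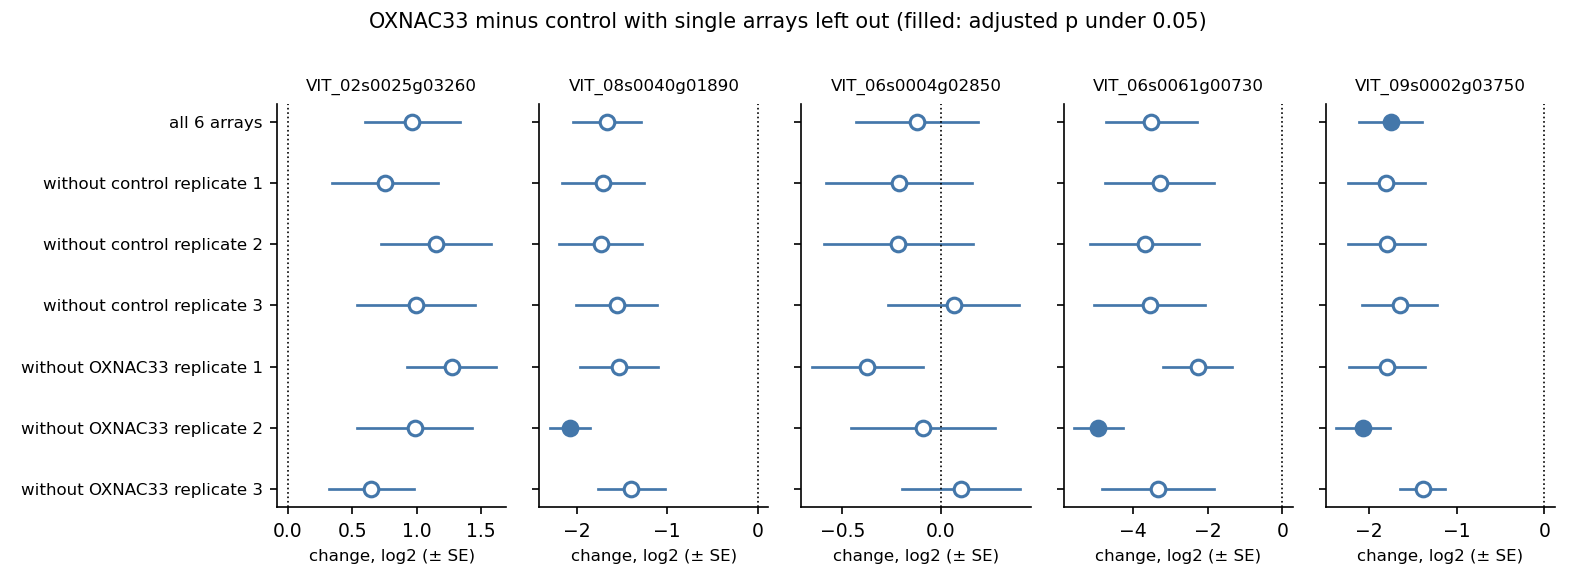
Change of the 5 tested members (log2, OXNAC33 minus control, with SE) with all 6 arrays and with each array left out in turn. Filled points passed adjusted p below 0.05, which 3 members did without OXNAC33 replicate 2 and none did without any other array, and the sign of VIT_06s0004g02850 turned without control 3 and without OXNAC33 replicate 3.

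With OXNAC33 replicate 2 left out, 3 of the 5 tested members were called, beside 10.7% of the 23814 probes tested, namely VIT_08s0040g01890, VIT_06s0061g00730 and VIT_09s0002g03750. With any other array left out, 0 of the 5 were called by limma, where at most 9 probes of the array were called at all. In those fits 2 to 4 of the 5 had an unadjusted p below 0.05 (limma), beside 19.4% to 24.4% of all probes. The changes kept their sign in these 6 fits for 4 of the 5, at 0.65 to 1.27 for VIT_02s0025g03260, -2.07 to -1.40 for VIT_08s0040g01890, -4.93 to -2.27 for VIT_06s0061g00730 and -2.07 to -1.39 for VIT_09s0002g03750.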

How the data were processed

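RNA of 3 control and 3 OXNAC33 leaf samples was hybridised to single-colour Agilent grapevine arrays. The deposited intensity values are the background-subtracted signals of Feature Extraction 10.5.1.1, per the file headers. The deposited series table holds 23080 probes, against 34369 gene probes on the array, with the same intensity values multiplied by a constant per array. Here log2 intensity was taken relative to the 75th percentile of each array, outlier-flagged spots were dropped, and a probe was tested if every array of 1 or both groups had it well above background and each group kept 2 or more values. Groups were compared with limma 3.58.1 (lmFit, eBayes, two-sided) in R 4.3.3, Benjamini-Hochberg adjustment covered all 23907 probes, and the threshold was 0.05. The script was tested on simulated data. The members and gene lists were chosen with earlier results of these data known. Named genes were the 6 members, all 8 other annotated aquaporins, the called proton pumps, VviNAC33, the markers and the 2 probes most like the members. The number of arrays limits the precision. No probe, promoter or protein sequence was used.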

Additional observations from a re-analysis of the deposited data

How the results depend on the processing

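Across 14 alternative settings with all arrays, VIT_02s0025g03260 kept its direction and stayed outside the threshold, and VIT_06s0061g00730 did so in every setting but the one without OXNAC33 replicate 2 (-4.93). VIT_08s0040g01890 passed under quantile scaling (-1.64), array median scaling (-1.54), the stricter filter (-1.67), trended robust estimation (-1.67) and the methods' t-test without adjustment (-1.67), which left 2 members called in each, and without OXNAC33 replicate 2 (-2.07). Of all probes, 5.59% to 7.55% were called in these limma settings with all arrays, and 10.7% without OXNAC33 replicate 2. The t-test without adjustment called 24.3% of all probes. VIT_09s0002g03750 lost its call under spike-in scaling (-1.55), normexp (-1.32), no filter (-1.75), the session block (-1.91) and the methods' t-test after Benjamini-Hochberg adjustment (-1.75), with 0 members called in each by limma or the t-test. In each of these limma settings 4 members had an unadjusted p below 0.05, beside 18.5% to 28.6% of all probes. In the t-test 2 members did, beside 24.3% of all probes. VIT_06s0004g02850 turned to 0.0047 under array median scaling, 0.079 under spike-in scaling and 0.29 within session 1, and moved to -0.66 within session 2, where VIT_08s0040g01890 was -2.24 and VIT_09s0002g03750 -2.53. These 2 scalings raised the median of all probes to 0.11 and 0.19, normexp lowered it to -0.23, and the cause of the other differences was not tested. Leaving out 1 array at a time gave -2.07 to -1.40 for VIT_08s0040g01890, -0.37 to 0.10 for VIT_06s0004g02850 (0.066 without control 3 and 0.10 without OXNAC33 replicate 3), -4.93 to -2.27 for VIT_06s0061g00730, -2.07 to -1.39 for VIT_09s0002g03750 and 0 to 3 members called.

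The count of probes called went from 1200 to 0 under normexp, no filter, the session block and the replicate block (5188, 6314, 6844 and 5981 at an unadjusted p below 0.05), to 1806 with trended robust estimation, to 5805 and 2 with the methods' t-test before and after adjustment, and to between 0 and 2554 with 1 array left out. Spike-in scaling gave 635 higher and 352 lower calls, against 405 and 795. Deviations of same-numbered samples correlated at r = 0.26, -0.22 and 0.19 over 23228 probes, for numbers 1, 2 and 3. Samples numbered 1 shared a scan session, as did those numbered 3, but those numbered 2 did not. These values therefore do not settle whether the numbers pair the samples. With the replicate number as a block VIT_09s0002g03750 changed by -1.75 (adjusted p = 0.104, limma) and 0 members were called. With 3 arrays per group the intervals given were wide, and a change that was not called is not shown to be absent.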
